A study of Homo sapiens with 4 samples.

Results

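The genes described here are the DEAD-box and DEAH-box helicases, taken as every gene whose symbol begins with DDX or DHX and a digit. The deposited table of skipped exons held 368 events in 49 such genes. An event is a set of 3 exons of which the middle one is either spliced in or skipped. The 342 events with a mean of at least 20 junction reads over the 4 libraries were tested, out of 54503 such events in the table, and covered 286 exons in 47 genes (31 DDX and 16 DHX). DDX58 and DHX58, sensors of viral RNA, had only events under that limit. The symbol does not always mean a helicase: DDX26B is named INTS6L in GENCODE release 29, and DDX12P and DHX40P1 are pseudogenes of DDX11 and DHX40.

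The libraries came from HEK293T, a human embryonic kidney cell line. Per the labels, 2 libraries were from cells transfected with a gapmer antisense oligonucleotide (ASO) against SNORD89, a C/D box small nucleolar RNA, at 70 nM, and 2 from cells with no treatment, whose labels carry the same transfection protocol. A gapmer is a modified DNA strand that has RNase H cut the RNA it pairs with. Medium was changed at 24 hours, RNA was taken at 48 hours, and poly(A) RNA was sequenced as read pairs of 150 bases. No control ASO is named, and the splicing table does not measure SNORD89. Neither the headers nor the labels state which of the 2 sets in the table had the ASO, so all directions are first set against second set, with 2 libraries each.

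DEAD-box and DEAH-box proteins bind RNA and use ATP to open short duplexes, to strip proteins from RNA or to remodel RNA-protein complexes. Both families share a core of 2 RecA-like domains with conserved motifs, and are named from motif II (Walker B), where the residues that hold magnesium and cleave ATP lie. Motif I (Walker A) binds the phosphates of ATP, motif Ia contacts RNA, motif III links ATP use to unwinding, and motif VI closes the ATP site. Members act in splicing, ribosome assembly, mRNA export, translation, RNA decay and mitochondrial RNA metabolism.

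Several exons that the results turn on are shown here, 5′ to 3′ on the sense strand. Coordinates are those of the deposited table (hg19), and the letters are from GENCODE release 29 transcripts, matched to the events by exon length and intron spacing. Capitals mark the codons of the motif named, or a stop codon. The first 2 exons, shown because they hold motif II itself, were almost never skipped.
DDX17 motif II, chr22:38890891-38891051, minus strand: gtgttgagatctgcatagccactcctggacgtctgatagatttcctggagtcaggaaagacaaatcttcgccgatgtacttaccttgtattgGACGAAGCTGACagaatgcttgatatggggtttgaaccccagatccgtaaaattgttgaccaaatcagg
DHX37 motif II, chr12:125455848-125455961, minus strand: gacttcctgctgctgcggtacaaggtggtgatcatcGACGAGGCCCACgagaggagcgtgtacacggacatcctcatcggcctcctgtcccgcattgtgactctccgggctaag
The next 3 also hold a motif, and were skipped in a measurable share of transcripts.
DHX33 motifs I and Ia, chr17:5366849-5367009, minus strand: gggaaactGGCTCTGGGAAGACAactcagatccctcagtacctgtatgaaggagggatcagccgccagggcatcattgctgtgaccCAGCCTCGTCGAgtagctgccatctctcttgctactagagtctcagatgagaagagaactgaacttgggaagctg
DHX35 motif I, chr20:37601202-37601294, plus strand: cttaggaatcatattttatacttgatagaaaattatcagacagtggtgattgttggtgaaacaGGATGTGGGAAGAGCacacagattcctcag
DDX6 motif Ia, chr11:118635917-118636063, minus strand: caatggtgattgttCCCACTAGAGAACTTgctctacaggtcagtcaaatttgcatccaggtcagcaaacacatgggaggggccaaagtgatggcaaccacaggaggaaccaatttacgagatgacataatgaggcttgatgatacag
With the flanking exons of the events described, the following exons are in release 29 only in transcripts marked for nonsense-mediated decay (NMD), the pathway that removes mRNAs with an early stop codon. With another flanking exon the DDX19B exon is also in a protein-coding transcript. DHX34 and DDX50 are shown up to the stop codon inside the exon, and the whole DDX19B exon is shown.
DDX19B, chr16:70348805-70348858, plus strand: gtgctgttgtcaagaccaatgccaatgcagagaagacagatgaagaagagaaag
DHX34 up to the stop, exon chr19:47880172-47880246, plus strand: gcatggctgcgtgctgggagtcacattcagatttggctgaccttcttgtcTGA
DDX50 up to the stop, exon chr10:70665982-70666093, plus strand: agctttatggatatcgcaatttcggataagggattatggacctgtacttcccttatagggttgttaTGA

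Most helicase exons were constitutive. The inclusion level is the share of transcripts over the event that carry the exon, from 0 to 1, estimated from junction reads corrected for the length of each form. Of the 342 events, 280 had a mean level above 0.95 over the 4 libraries, which is 81.9% against 66.1% of all tested events. Another 22 lay under 0.05, and 40, in 17 genes, lay between these limits. The median event had a mean of 388 junction reads, and the median over all tested events was 190. Junction reads summed to between 38613055 and 43929373 a library, and each of the 342 events had reads in every library. Second set library 2 stood apart: among the 40 intermediate helicase events it was the library farthest from the median of the 4 in 19, and in 43.0% of all intermediate events. Of 9 markers of the HEK293 lineage, 3 had tested events (4 events, 1 of them called, in SIX4), and a table of skipped exons cannot show whether the others were expressed.

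Exons that hold motif II, which gives the families their name, were hardly skipped, like most helicase exons. A motif was found in the exon of 55 events (46 exons in 27 genes), after a search of the encoded protein of each gene. For the 6 motif II exons, the lowest inclusion level in any library was 0.991, and 14 of 21758 junction reads supported skipping. The DDX17 exon printed above had levels of 1, 0.999, 1 and 1 (first set library 1 and 2, second set library 1 and 2), from 3753, 2387, 788 and 830 reads. The DHX37 exon had 0.998, 0.998, 0.997 and 1. DDX17 is a partner of DDX5 in transcription and splicing, and DHX37 acts in assembly of the small ribosomal subunit. The comparison between motifs is a description: the exons number 6 for motif II, and 17, 8, 6 and 12 for motifs I, Ia, III and VI. Motif II was found in 39 genes, of which 6 had a tested event for its exon. The median of the mean levels was 0.998 for motif II, and 0.996, 0.997, 0.997 and 0.998 for motifs I, Ia, III and VI. High inclusion was therefore not particular to motif II.

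Motif exons of intermediate inclusion were found in 5 genes: DHX33, DHX35, DDX6, DDX55 and DDX59. They made up 8 of the 55 motif events (14.5%), and among the 224 other events of the genes in which motif II was found, 24 (10.7%) were intermediate. The 8 events are 7 exons and not all separate: the 115-nt exon of DDX55 is in more than 1 of them. The DDX55 events of the 229-nt exon with motif I and the 92-nt exon with motif Ia have the same 21 skipping reads. The exons named here for their motif were chosen after their values were seen. In DHX33, a helicase of ribosome biogenesis, the 161-nt exon with motifs I and Ia had first set levels of 0.654 (95% Wilson interval 0.595 to 0.709) and 0.606 (0.537 to 0.671). Its second set levels were 0.695 (0.579 to 0.791) and 0.704 (0.596 to 0.793). Both second set libraries were above both first set libraries, but the intervals overlapped, and its difference is -0.070 and its false discovery rate (FDR) 0.704 per the authors' deposited table. Release 29 has protein-coding transcripts with and without this exon, whose length is not a multiple of 3.

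In DHX35, a spliceosome-associated helicase, the 93-nt exon with motif I had levels of 0.916, 0.881, 0.886 and 0.851 from 93, 52, 41 and 41 reads. The sets overlapped, and the authors' deposited table gives an FDR of 1. Its 78-nt exon was skipped more often, at 0.792, 0.698, 0.706 and 0.657, again with overlap. Release 29 has protein-coding transcripts that skip each of these exons, and both lengths are multiples of 3. In DDX59, the 252-nt exon with motif III had 0.891, 0.915, 0.978 and 0.947, lower in both first set libraries, at FDR 0.20 per the authors' deposited table.

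DDX55, a helicase of ribosome assembly, had 22 tested events, of which 6 were intermediate. Several share an exon: the 115-nt exon with motif VI is in 3 events with different flanking exons. In the deepest of these the levels were 0.894 and 0.948 for the first set libraries, against 0.948 and 0.752. Second set library 2 was the low one, with an interval of 0.683 to 0.810 that did not reach any other library's. Without it the recomputed difference of 0.0712 turned to -0.0272. With other flanking exons the same 115-nt exon had mean levels of 0.923 and 0.998.

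**Figure D1:**
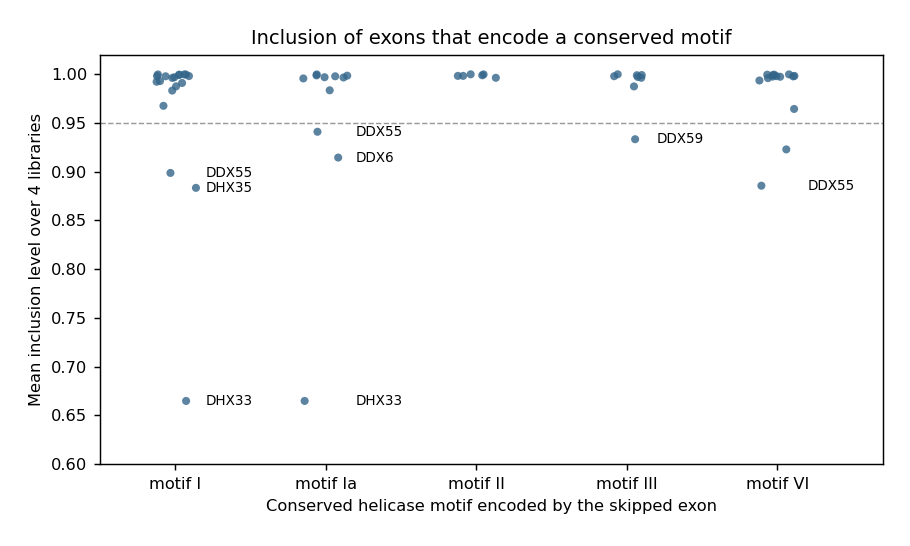
Mean inclusion level over the 4 libraries (vertical axis, 0.6 to 1) of each helicase event whose exon holds conserved motif I, Ia, II, III or VI (horizontal axis). Each point is 1 event, the dashed line is at 0.95, and points are spread sideways only to separate them: all 6 motif II events lie above 0.99, and the lowest point, DHX33 at 0.665, appears under both motifs that its exon holds.

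The comparison of the sets asked which helicase exons were spliced differently between the cells with and without the ASO. An event was called where the authors' deposited table gives an FDR under 0.05 and a difference of at least 0.1 in inclusion level. By this rule 5 of the 342 events, in 4 genes, were called (1.46%), beside 2.71% of all tested events. The 5 calls were in DDX19B (2 exons), DDX6, DDX12P and DHX40P1, and all were higher in the first set. Of the 1477 calls over the whole table, 729 were higher in the first set, which is 1.34% of all tested events. The 2 DDX19B calls share junction reads and are not independent. At an FDR under 0.05 with any difference there were 11 helicase events (3.22%), beside 5.72% of all tested events. All 11 were higher in the first set. Of the 3115 tested events with such an FDR, 1653 were higher in the first set, which is 3.03% of all tested events.

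With the spread between libraries as the error, no helicase event passed, in tests with little power. The quasi-binomial model of inclusion and skipping reads, with Benjamini-Hochberg adjustment over all 54503 events, called 0 helicase events at an adjusted p under 0.05, and 1 event in the table (0.00183%). At an unadjusted p under 0.05 it had 13 helicase events, beside 3.43% of all tested events. The limma test on the log2 ratio of the reads called 0 helicase events, and had 11 at an unadjusted p under 0.05 (4.87% of all events). In a self-test on made-up reads of 4 libraries, 200 events were changed by 0.3 in read share. Limma recovered 0 of them, so its count of 0 carries no information. The quasi-binomial model recovered 20 of the 200 when the scatter between libraries was included, so it missed most of them. Smaller changes, such as the 0.1 asked for in a call, were not simulated.

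Of the role lists, mRNA export, translation and turnover held 3 of the 5 calls, 2 of them the DDX19B exons that share reads. It had 64 tested events in 11 genes, of which 4.69% were called, beside 2.71% of all tested events. An FDR under 0.05 was given to 6 of them, all higher in the first set, beside 5.72% of all, and 6 had an unadjusted quasi-binomial p under 0.05, beside 3.43%. The median difference over its events was 0.000664, and over all tested events -0.0014. The DDX11 family had 31 events and 1 call, in the pseudogene DDX12P, and 1 unadjusted quasi-binomial p under 0.05. The spliceosome and early mRNA list had 81 events in 13 genes, ribosome biogenesis 118 in 15 genes and mitochondrial RNA 19 in 1 gene, with 0 calls each from the authors' deposited table and 1, 2 and 0 events at an FDR under 0.05. At an unadjusted p under 0.05 in the quasi-binomial model these 3 lists had 2, 3 and 1 events. None of the 4 genes listed for innate RNA sensing had a tested event.

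Proteins that work with these helicases were looked at in the same way. Related helicases under other symbols, such as the EIF4A genes and SNRNP200, had 72 tested events in 10 genes, with 2 calls, both in DICER1, which cuts microRNA precursors, and both higher in the first set (2.78% called). G-patch proteins and other activators of DEAH helicases had 126 events in 20 genes, with 3 calls in GPATCH8 and RBM6, of which 1 was higher and 2 were lower in the first set (2.38% called). Both shares were near the 2.71% of all tested events.

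DDX19B (ENSG00000157349.11) encodes a helicase that releases mRNA on the cytoplasmic face of the nuclear pore. Its 54-nt exon, printed above, had first set levels of 0.870 (95% Wilson interval 0.787 to 0.923) and 0.713 (0.611 to 0.798), from 121 and 101 reads. Its second set levels were 0.556 (0.410 to 0.693) and 0.511 (0.417 to 0.604), from 46 and 109 reads. Both first set libraries were higher, and its difference is 0.258 and its FDR 0.00232 per the authors' deposited table. The recomputed difference was 0.258 against a pooled SD within sets of 0.0813, and stayed between 0.180 and 0.336 with any 1 library left out. The quasi-binomial p was 0.00571 before adjustment. These levels hold for 1 pair of flanking exons. In a second, deeper event of the same exon, with a mean of 251.5 reads, the levels were 0.991, 1, 1 and 1, with a difference of -0.004 at FDR 1 per the authors' deposited table. Of the 11 exons with an FDR under 0.05, this one and an exon of DDX50 were in more than 1 tested event, and of the 36 exons of intermediate inclusion, 15 were.

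The second called exon of DDX19B, of 136 nt at chr16:70349872-70350007, lies downstream of the first, and in release 29 is only in an NMD transcript between these flanking exons. The junction that skips the 54-nt exon leads into this 136-nt exon. Its 12, 23, 17 and 45 reads thus count as skipping there and as inclusion here, so the 2 calls are not independent. Levels of the 136-nt exon were 1 and 1 in the first set against 0.942 and 0.738 in the second, from 33, 28, 32 and 64 reads. Second set library 2 was the low one: the deposited difference was 0.16 (FDR 0.0035 in the authors' deposited table), and the recomputed one fell to 0.0581 without that library and was 0.262 without second set library 1. Of the 12 tested events of DDX19B, 5 were intermediate. The 49-nt coding exon upstream had 0.898, 0.933, 0.969 and 0.942, lower in both first set libraries, at FDR 0.163 per the authors' deposited table. With another flanking exon the 49-nt exon had 0.878, 0.766, 0.819 and 0.747, where the sets overlapped and the deposited difference had the other sign (0.039, FDR 0.967). The skipping reads of that event are those of the called 54-nt event. The DDX19B exon with motif I had 0.887, 1, 1 and 0.983, a deposited difference of -0.048 and FDR 0.0936, and first set library 1 was the low one. The exons of DDX19B with motifs II and III were at 0.988 or above in every library.

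DDX19A, the near-identical neighbour of DDX19B on chromosome 16, had 1 event with an FDR under 0.05. How the authors' counting split reads between the pair is not given in the sources used here, so values of both genes are uncertain. The 219-nt form of an exon of DDX19A, with a stop codon in an NMD transcript, had 0.993 and 0.993 in the first set against 0.978 and 0.916 in the second. Both first set libraries were higher, with a deposited difference of 0.046, at FDR 0.00463 per the authors' deposited table. Without second set library 2 the recomputed difference was 0.0151.

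DDX6 (ENSG00000110367.7) is a helicase of P-bodies that acts in mRNA decapping and translational repression. Its 147-nt coding exon with motif Ia, printed above, had first set levels of 0.963 (0.936 to 0.978) and 0.968 (0.933 to 0.985). Its second set levels were 0.908 (0.815 to 0.956) and 0.819 (0.716 to 0.891). The levels of the sets did not overlap, although the intervals of second set library 1 and both first set libraries did, and its difference is 0.102 and its FDR 0.00679 per the authors' deposited table. The depth was uneven, with 624 and 371 reads in the first set against 123 and 120 in the second. Without second set library 2 the recomputed difference was 0.0579, and without first set library 2 it was 0.0991, just under the limit for a call. The quasi-binomial p was 0.0297 before adjustment. The exon is a multiple of 3 in length, and release 29 has no transcript that skips it between these neighbours. The 130-nt exon of DDX6 with motif I was at 0.997 in first set library 1 and 1 in the others.

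The other 2 calls were in pseudogenes, whose reads cannot be kept apart from those of the parent gene with certainty. In DHX40P1 (ENSG00000266992.1), the 183-nt exon at chr17:58072993-58073175 had 1 and 0.869 in the first set against 0.733 and 0.538 in the second. Both first set libraries were higher. Only 41, 57, 26 and 20 reads lay behind these levels, and the 95% intervals of first set library 2 (0.714 to 0.946) and second set library 1 (0.498 to 0.884) overlapped. Per the authors' deposited table the difference is 0.299, at FDR 0.027. In the parent gene, DHX40, a 183-nt exon that holds motif VI had 0.989, 1, 1 and 1.

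DDX12P (ENSG00000214826.4) is a pseudogene of DDX11, a DNA helicase of sister chromatid cohesion. Its 87-nt exon at chr12:9589999-9590085 had 0.960 and 1 in the first set against 1 and 0.706 in the second, from 78, 106, 35 and 48 reads. Only second set library 2 was low. Per the authors' deposited table the difference is 0.127, at FDR 0.014, but the sets overlapped, and without second set library 2 the recomputed difference was -0.020. Without second set library 1 it was 0.274.

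**Figure D2:**
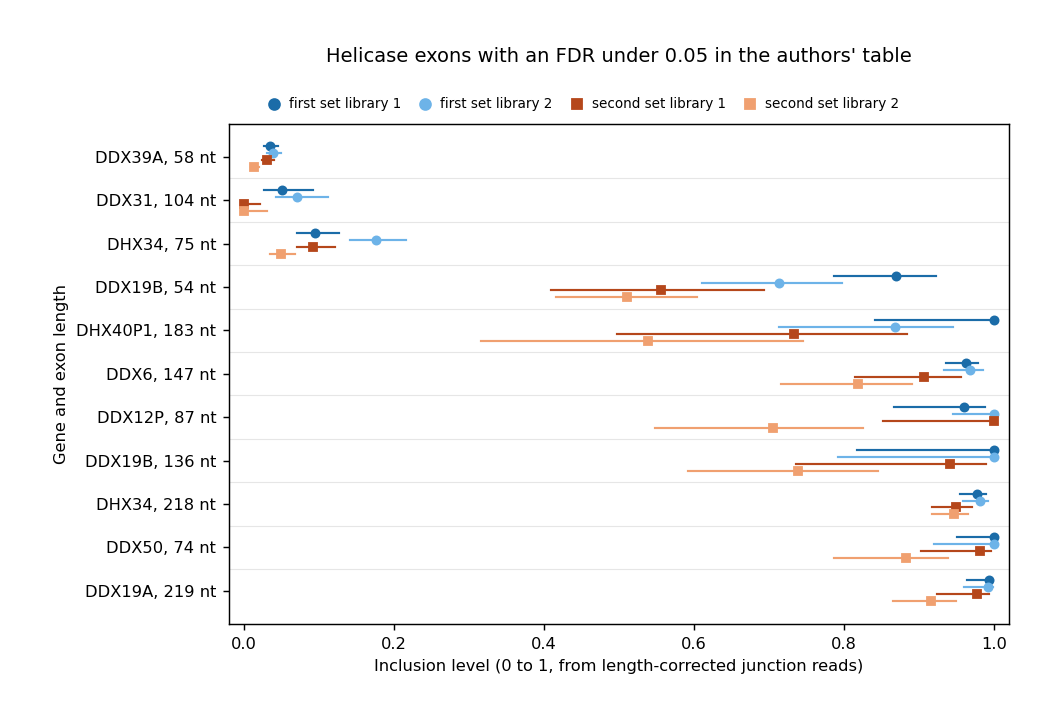
Inclusion level (horizontal axis, 0 to 1) of the 11 helicase exons with an FDR under 0.05 in the authors' deposited table, ordered by mean level, with gene and exon length on the vertical axis. Each point is 1 library with its 95% Wilson interval (counting error only), circles for the first set and squares for the second: the squares lie to the left of the circles in all but DDX12P, and second set library 2 alone is the lowest in 10 of the 11.

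A further 5 events, beside the one of DDX19A, had an FDR under 0.05 with a difference under 0.1. In DHX34, a helicase that takes part in NMD, 2 exons were among them. The 75-nt exon printed above, which release 29 has only in an NMD transcript, had 0.0947 and 0.176 in the first set against 0.0927 and 0.0494 in the second, from 309, 305, 368 and 469 reads. First set library 1 and second set library 1 were nearly equal, first set library 2 was high and second set library 2 low. Per the authors' deposited table the difference is 0.065, at FDR 0.0059, and without first set library 2 the recomputed difference was 0.0237. The 218-nt coding exon of DHX34, which holds motif VI, had 0.978 and 0.982 against 0.95 and 0.947. Its recomputed difference was between 0.0292 and 0.0337 with any 1 library left out, and its FDR in the authors' deposited table was 0.0443.

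DDX31, a nucleolar helicase, had a 104-nt exon with reads for inclusion only in the first set. Its levels were 0.0508 and 0.0706 from 120 and 140 reads, against 0 and 0 from 103 and 70 reads, which by the Wilson interval allow up to 0.0215 and 0.0313. The authors' deposited table gives an FDR of 0.000312, the smallest of any helicase event. The quasi-binomial p was 0.00589 and the limma p 0.00132, both before adjustment over all events. The exon, at chr9:135544957-135545060, was not matched in release 29.

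DDX39A, an mRNA export helicase, had a rarely included 58-nt exon, at 0.0353, 0.0392, 0.0316 and 0.0138 from 1198 to 1526 reads, at FDR 0.0366 per the authors' deposited table. Second set library 2 was the low one, and without it the recomputed difference of 0.0146 was 0.00567. DDX50, a nucleolar relative of DDX21, had a 74-nt coding exon at 1 and 1 in the first set against 0.981 and 0.883 in the second. The authors' deposited table gives an FDR of 0.0207, and the recomputed difference was 0.0680 with all libraries and 0.0186 without second set library 2. In a deeper event of the same exon, with a mean of 389 reads, the levels were 0.992, 1, 1 and 1 and the FDR was 1.

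Exons of intermediate inclusion show how helicase transcripts vary within each set. Of the 40, 28 were higher in the first set, beside 52.2% of the intermediate events of the whole table, and in 16 the sets did not overlap, beside 33.2%. The 40 events cover 36 exons and are not all separate observations. Some share skipping reads, as in DDX11, DDX19B, DDX31, DDX50 and DDX55. The 79-nt and 74-nt forms of a DDX11 exon, both higher in the first set, have the same skipping reads (14, 13, 18 and 34). The median absolute difference was 0.0610, and the median SD within sets was 0.0667, so the typical difference was no larger than that SD. For the intermediate events of the whole table these medians were 0.0552 and 0.0651. Setting the medians side by side is a description and not a test. Coding exons made up 22 of the 40 and non-coding ones 16. A length that is a multiple of 3 was found in 13 of the 40 (32.5%) and in 123 of the 280 events above 0.95 (43.9%).

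By release 29, 9 of the 40 had protein-coding transcripts for both forms, in DDX19B, DDX27, DDX42, DHX30, DHX33 and DHX35. In 5, in DDX19B, DDX50, DHX30 and DHX34, the included form was only in NMD transcripts and the skipped form was protein-coding. In 9, in DDX11, DDX19B, DDX42, DDX49 and DDX55, it was the skipped form that was only in NMD transcripts. In 7 the included form was protein-coding and the skipped form was not annotated, and 10 had other annotations or no match. The median inclusion level was 0.192 in the class whose included form is NMD only and 0.902 in the class whose skipped form is.

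DDX50 belongs to the first of these classes. Its 112-nt exon, printed above, had 0.153, 0.16, 0.155 and 0.30, so 3 libraries were nearly equal and second set library 2 was high. The authors' deposited table gives an FDR of 0.360, and the recomputed difference went from -0.0714 to 0.00078 without that library. A shorter 54-nt form of the same exon had 0.0875, 0.0669, 0.0327 and 0.197, also highest in that library. The 2 forms share their skipping reads (222, 174, 152 and 120) and their downstream junction, so they are not separate observations. In DDX42, a helicase of the U2 particle, a 37-nt coding exon had 0.881, 0.870, 0.907 and 0.921, and its skipped form is annotated only as NMD. Both first set libraries were lower, within overlapping intervals, and the authors' deposited table gives an FDR of 0.571. A 71-nt untranslated exon of DDX42 had 0.212, 0.16, 0.168 and 0.11 from 387, 388, 187 and 175 reads, with overlap of the sets, and without second set library 2 its difference of 0.0467 was 0.0176.

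DHX30, which acts on mitochondrial RNA and ribosomes, had 4 intermediate events among 19. Its 166-nt exon had first set levels of 0.276 (0.230 to 0.328) and 0.399 (0.340 to 0.462), and second set levels of 0.607 (0.533 to 0.677) and 0.386 (0.324 to 0.451). Second set library 1 was high, and second set library 2 lay between the first set libraries. Per the authors' deposited table the difference is -0.159, at FDR 0.249, and without that library the recomputed difference was -0.0478. The 29-nt exon of DHX30 that is annotated only as NMD had 0.266, 0.420, 0.301 and 0.260 with the more used flanking exon. With another flanking exon, at 12 to 27 reads a library, it had 0.807, 1, 0.518 and 1.

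In DDX27, a nucleolar helicase, a 93-nt coding exon was included at a low level in every library, at 0.0912, 0.0856, 0.0687 and 0.117 from 498 to 533 reads. The sets overlapped, and the authors' deposited table gives an FDR of 1. DDX31 had 2 intermediate exons, of 112 nt at 0.695, 0.790, 0.755 and 0.922, and of 82 nt at 0.615, 0.772, 0.534 and 0.587. Both events have the same skipping reads (23, 12, 18 and 10), from 1 junction that skips both exons together, so they are not independent. The 112-nt exon was highest in second set library 2, and the 82-nt exon was higher in both first set libraries, at FDR 0.248 and 0.518 per the authors' deposited table. Without second set library 2 the difference of the 112-nt exon went from -0.0955 to -0.0120. With other flanking exons the 112-nt exon had mean levels of 0.974 and 0.991, and the 82-nt exon 0.959 and 0.983. DDX49 had a 76-nt exon at 0.196, 0.107, 0.336 and 0.312, higher in both second set libraries, but from 26 to 32 reads each and at FDR 0.139 per the authors' deposited table. With another flanking exon, from a mean of 677 reads, it had 0.0202, 0.0159, 0.0382 and 0.0185.

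The widest spread within a set was in shallow events. In DDX11 the 344-nt exon had 0.469, 0.585, 0.20 and 0.579 from 36, 42, 27 and 15 reads. A 158-nt exon of DDX12P had 0.704, 0.857, 0.833 and 0.400 from 14 to 52 reads, and its difference of 0.164 turned to -0.0529 without second set library 2. By contrast, the 79-nt exon of DDX11, from 429 to 551 reads, had 0.951, 0.957, 0.943 and 0.909, with a difference of 0.028 at FDR 0.262 per the authors' deposited table, and of 0.0107 without second set library 2. With another flanking exon, from a mean of 216 reads, the 79-nt exon of DDX11 had 1, 0.979, 1 and 1. An exon of the same length in DDX12P had 0.857, 0.862, 0.780 and 0.918.

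**Figure D3:**
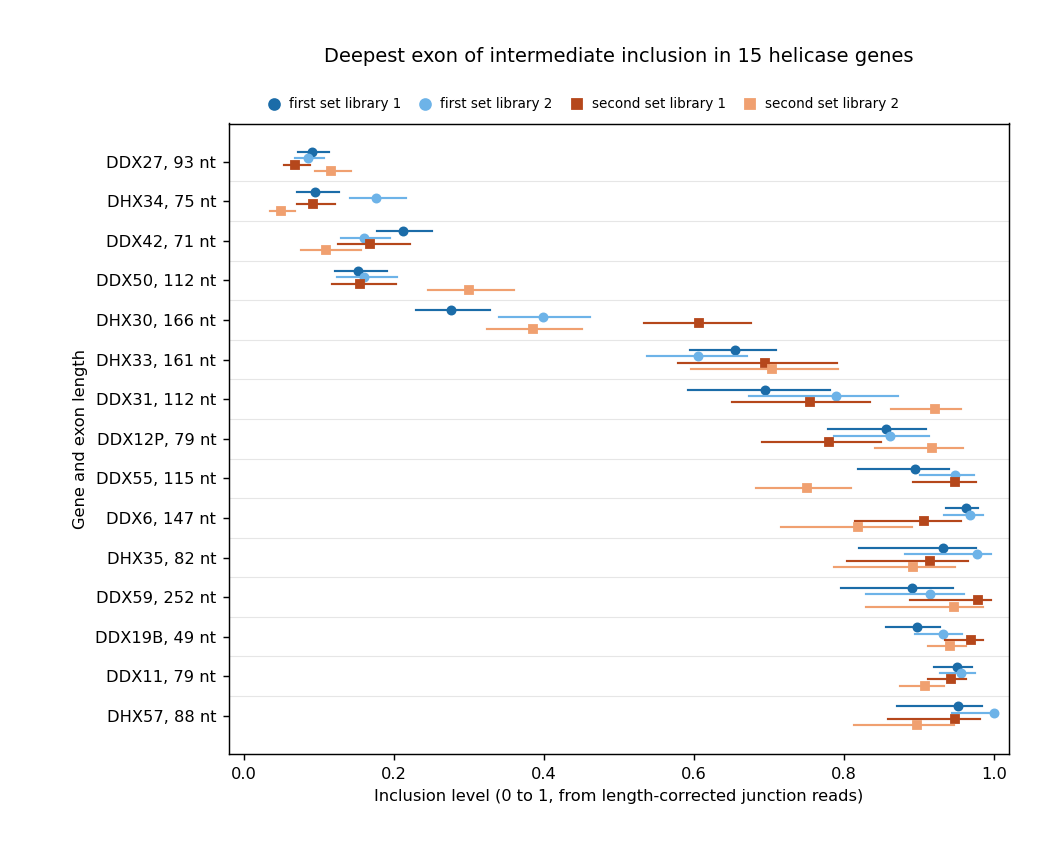
Inclusion level (horizontal axis, 0 to 1) of the deepest exon of intermediate inclusion in the 15 helicase genes with most reads on such an exon, with gene and exon length on the vertical axis. Each point is 1 library with its 95% Wilson interval, circles for the first set and squares for the second: in several genes 1 library stands apart from the other 3, as in DDX50 (0.30 against 0.153 to 0.16) and DHX30 (second set library 1 at 0.607).

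Beyond the events above, the 5 smallest quasi-binomial p-values were on nearly constitutive exons. DDX50, on a 146-nt exon that holds motif III, had 0.971 and 0.979 against 1 and 1, with an unadjusted quasi-binomial p-value of 0.0391. DHX16, a helicase of spliceosome activation, had 0.994 and 0.982 against 1 and 1 on a 174-nt exon, with an unadjusted quasi-binomial p-value of 0.0325. These 2 were lower in both first set libraries. DDX21, a nucleolar helicase of ribosomal RNA synthesis, had 0.995 and 1 against 0.983 and 0.988 on a 45-nt exon, with an unadjusted quasi-binomial p-value of 0.0324. A 61-nt exon of DDX1 (0.998, 0.996, 0.992 and 0.976) and the 93-nt form of the DDX19A exon (0.998, 0.997, 0.992 and 0.968) were also higher in both first set libraries. Without second set library 2 their differences went from 0.0126 to 0.00486 and from 0.0174 to 0.00572. The 93-nt form of DDX19A has the same skipping reads (1, 1, 2 and 14) as its 219-nt form described above, so it is not a separate observation. All differences were 0.0252 or less in size, and no adjusted p of a helicase event in the quasi-binomial model was under 0.858.

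The limit of 20 reads left DDX49 (20.25 reads, a 65-nt exon at 0, 0, 0.141 and 0) and DHX30 (20 reads) just inside. A DDX39B event at 15.5 reads and a DDX19B event at 14.5 reads lay just outside, with deposited differences of 0.132 and 0.044 and FDR values of 0.498 and 1 in the authors' deposited table.

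Junction reads of helicase genes differed between the sets, as did those of most genes in the table. For each gene the reads of its tested events were summed and given per 1000000 junction reads of the library. This follows the gene's RNA but also the number of its listed events, so it is compared only within a gene. In bulk RNA, fewer cells that express a gene and less of its RNA per cell cannot be told apart. Both second set libraries were below both first set libraries in 33 of the 47 genes (70.2%), beside 60.3% of all 9999 genes. They were above both in 2 genes, DDX56 and DDX10, beside 13.9% of all genes. The median gene of the whole table was higher in the first set by 0.37 on the log2 scale (1.29-fold), and the median helicase gene by 0.31. Scaled to the median gene, 17 of the 47 helicase genes were lower and 19 higher in both second set libraries, beside 37.0% and 37.0% of all genes.

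In 5 of the 47 genes (10.6%) the ratio of first to second set was at least 2 times that of the median gene, beside 12.2% of all genes. Such ratios were thus no more frequent among helicases. DDX6 had 71.6 and 41.2 reads per 1000000 in the first set against 12.3 and 12.3 in the second, a 4.58-fold ratio and 3.54 times the median gene's. DDX17 had 416 and 289 against 85.3 and 80.2 (4.26-fold), and DDX21 had 580 and 390 against 135 and 146 (3.46-fold). DDX3X, a helicase of translation initiation, had 264 and 185 against 70.4 and 64.6 (3.33-fold), and DHX33 had 63.1 and 41.6 against 17.1 and 15.5 (3.21-fold). In all 5, first set library 1 was the highest and the sets were far apart, also after scaling to the median gene. No test was made of these sums. At the other end, DDX56, a nucleolar helicase, had 49.2 and 54.3 against 70.4 and 73.0.

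The gene with the highest ratio, DDX6, also held a called exon, and DHX33 held the motif exon with the lowest inclusion level. The DDX6 exon thus rests on about 120 reads in each second set library. The part of depth in its difference in inclusion was not tested.

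**Figure D4:**
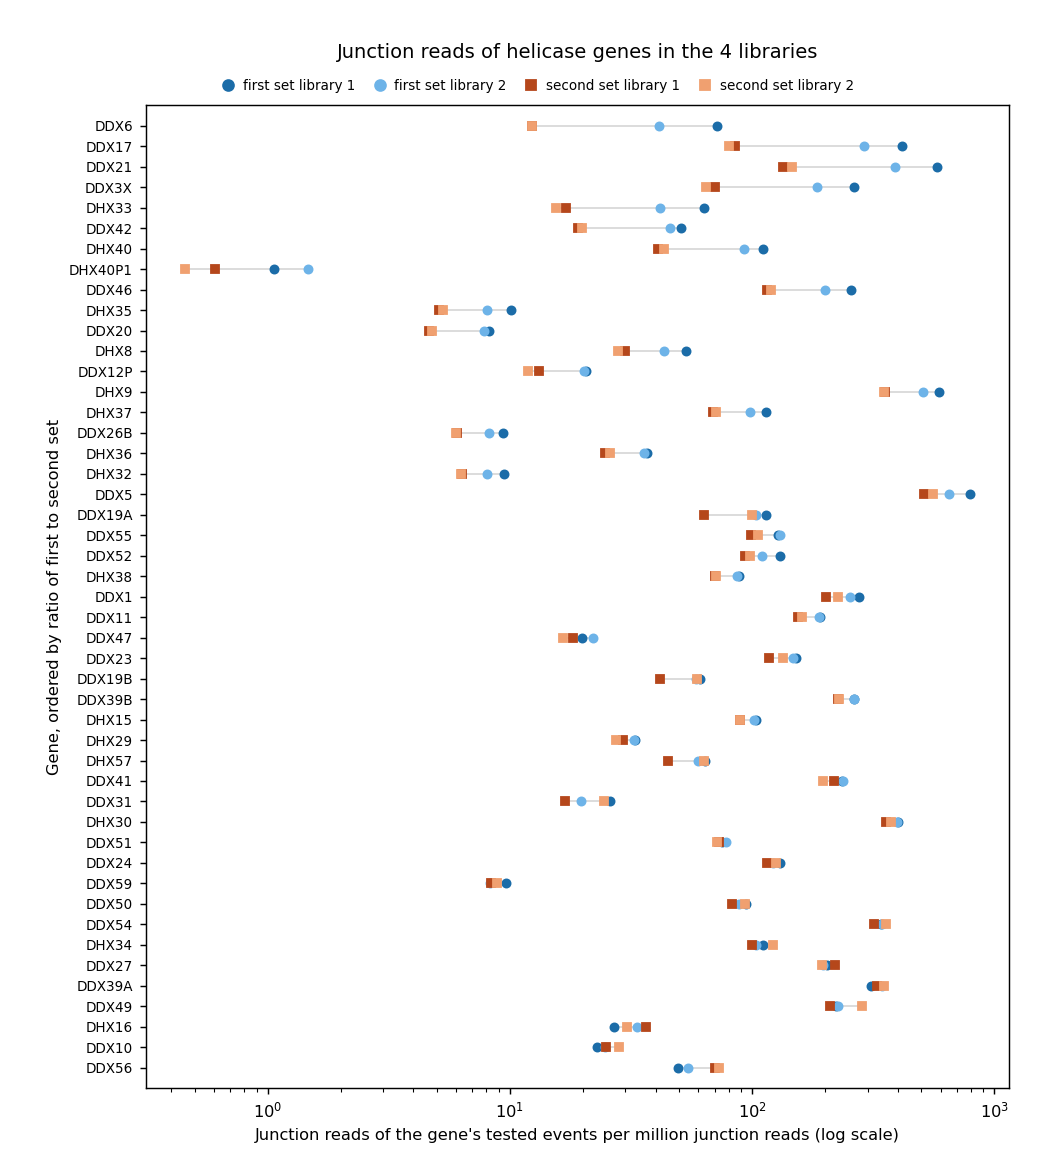
Junction reads of each helicase gene's tested events per 1000000 junction reads of the library (horizontal axis, log scale), for 47 genes ordered by the ratio of first to second set. Each point is 1 library, circles for the first set and squares for the second, joined by a grey line: DDX6, DDX17, DDX21, DDX3X and DHX33 at the top have the widest gap between sets, and DDX56 at the bottom is higher in the second set.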

How the data were processed

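Exon skipping was measured by poly(A) RNA-seq in 4 HEK293T libraries, 2 in each set. The submitters' processing notes name cutadapt, STAR and hg19; versions, the splicing program's version and the annotation release are not given in the sources used here. The deposited table has the layout of rMATS, per the file headers, and holds the junction read counts for inclusion and skipping in each library. The authors' inclusion levels are fractions of these reads after division by form length, and the deposited difference, a score, is the mean of the first set minus that of the second. The p-value and FDR of each event are the authors' own, in the deposited table. Recomputing the inclusion levels gave the deposited values within 0.0005.

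Computed here: Wilson intervals at 95% on the reads, which cover counting error only; a quasi-binomial model per event (inclusion and skipping reads, offset for form lengths) with its dispersion moderated by squeezeVar of limma 3.58.1 in R 4.3.3; and limma on the log2 ratio with a pseudocount of 0.5. All were fitted on 54503 events with Benjamini-Hochberg adjustment. The dispersion prior was taken from the 19072 events with enough reads on both forms. That choice was made after seeing the data, among several versions tried, from their recovery in a self-test and with their calls in view. A prior from all events called 0 events of the whole table, a fit on informative events alone 6, a trend 3 and a robust prior 110, against 1 here, and 0 helicase events each. Events were matched to GENCODE release 29 by exon length and intron spacing (327 of 342), with no coordinate converted, and motifs were searched in translated release 29 transcripts: motif II in 39 genes.

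The helicases and gene lists were chosen with earlier results of these data known. Named events are all with an FDR under 0.05, the deepest intermediate event of 15 genes, the 5 smallest remaining quasi-binomial p-values, the 3 widest spreads within a set and those at the read limit. Libraries are named by their place in a cell of the table. The labels call them biological replicates but name no separate cultures, so p-values measure the spread between these samples, which may be technical.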

Additional observations from a re-analysis of the deposited data

How the results depend on the processing

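The 5 called helicase events of the authors' deposited table (1477 of all tested events) became 3 at a mean of at least 50 reads (719), 8 at a difference of at least 0.05 (2499), 2 at a difference of at least 0.2 (525) and 3 at an FDR under 0.01 (748). The cause was not tested beyond the stricter or looser limit itself. With at least 10 reads there were 6 (2026 of all), with no read minimum 7 (2559), with no overlap of the sets 4 (1168) and with the deepest event of each exon 4 (1081), which leaves out the DDX19B 54-nt exon. With 1 library left out, 2 to 5 of the called events stayed at or above 0.1 without changing direction (1002 to 1418 of all). The lowest counts were without second set library 2, where the DDX19B 54-nt exon and the DHX40P1 exon stayed; the difference of the DDX12P exon ran from -0.020 without that library to 0.274 without second set library 1. The quasi-binomial model called 0 helicase events at an adjusted p under 0.05 under each alternative, including 3 other dispersion priors and a fit on informative events alone, all chosen after seeing the data. At an unadjusted p under 0.05 it had 1 to 29 helicase events and 145 to 5273 of all. Its smallest adjusted p for a helicase event was 0.0901, with a robust dispersion prior. Limma had 10 to 38 helicase events at an unadjusted p under 0.05 and 2195 to 6439 of all; its 0 adjusted calls say nothing about stability, since it recovered no change in a self-test. Leaving out a library leaves 1 in its set, which is then assumed to vary like the other set. The count of 33 genes with fewer junction reads in both second set libraries (6034 of all genes) became 23 on the deepest event of each gene (5082), 17 after scaling to the median gene (3701), and 33 to 41 with 1 library left out (6463 to 7166), all alternatives chosen after seeing the data. No paired analysis was possible because the columns of the table carry no replicate numbers. At low depth a single library's interval can be wider than the 0.1 asked for, as in the 136-nt exon of DDX19B (0.818 to 1 from 33 reads).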
